A study of Mus musculus with 8 samples.

Results

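The genes of major histocompatibility complex (MHC) class I presentation were followed through all 8 RNA-seq libraries of this mouse brain study. The 10 genes were chosen by name: the heavy chains H2-K1, H2-D1, H2-Q4 and H2-T23, the light chain B2m, the peptide transporter subunits Tap1 and Tap2, the loading factor Tapbp, and the immunoproteasome subunits Psmb8 and Psmb9. All 10 were found in both deposited tables, among 54532 genes in the table of the PTS + RS and RS groups and 28229 in the table of the RGFP109 and vehicle groups. All 10 had enough counts to be tested in every comparison.

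All animals were C57BL/6 mice, and all libraries were labelled Day 21. The RS group (2 libraries) received daily restraint stress. The PTS + RS group (2 libraries) received photothrombotic stroke, in which light on the skull activates Rose Bengal in the vessels of the right cortex and closes them, plus the same restraint. The other 2 groups were both PTS + RS mice: the RGFP109 group (2 libraries, 60 mg/kg subcutaneously once a day) received an inhibitor of class I histone deacetylases, labelled as an HDAC3 inhibitor, and the vehicle group (2 libraries) was labelled as NaCl treatment. The tissue label was cortex for all 4 libraries of the first table, and in each group of the second table cortex for replicate 1 and amygdala for replicate 2. No library came from mice with neither stroke nor restraint, and the methods mention pooling and barcoding without saying whether tissue or libraries were pooled, and do not give the number of mice in a library, so the p-values measure the spread between these libraries, which may be partly technical.

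Class I molecules show peptides from inside the cell to CD8 T cells and to receptors on natural killer cells. The proteasome cuts proteins into peptides, the immunoproteasome subunits replace constitutive catalytic subunits under interferon, the transporter TAP moves peptides into the endoplasmic reticulum, and tapasin holds the empty heavy chain and its light chain beta-2-microglobulin at TAP until a peptide binds. In the healthy brain the level of these molecules is low, and microglia, the resident macrophages of brain tissue, and endothelial cells are the cells best known to carry them.

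On GRCm38, 9 of the 10 genes lie on chromosome 17, and B2m lies on chromosome 2 (122147686 to 122153083, plus strand). H2-K1 runs from 33996017 to 34000333 on the minus strand, H2-D1 from 35262730 to 35267499 on the plus strand, H2-Q4 from 35379617 to 35385290 on the plus strand and H2-T23 from 36029773 to 36032855 on the minus strand. Tap1 (34187553 to 34197225, plus strand), Psmb9 (34181988 to 34187764, minus strand), Psmb8 (34197721 to 34201454, plus strand) and Tap2 (34203527 to 34216321, plus strand) stand side by side, and Tapbp lies at 33915899 to 33929288 on the plus strand. Tap1 and Psmb9 are read in opposite directions and overlap by 212 bases.

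Promoters of 9 of the 10 genes were present in a RefSeq table (GRCm38.p6); Tap2 had no entry. Their 250 bases before the start were searched on both strands for an interferon response core (TTTCNNTT), for the NF-kB consensus, for CCAAT and for the GAS element (TTCNNNGAA), all chosen after the sequences had been seen. The interferon core was present in 5 of 9 (H2-K1, H2-D1, H2-Q4, H2-T23 and B2m) and in 21.3% of 32851 promoters of the same length, and the NF-kB consensus in 4 of 9 (the same genes without H2-T23) and in 3.9% of all. Those 4 genes held both, as did 0.67% of all promoters. CCAAT was present in 8 of 9 members and 33.8% of all, and the GAS element in 1 of 9 (Psmb8) and 7.02% of all. The promoter windows of Tap1 and Psmb9 are one shared stretch for 275 of 300 bases, and their CCAAT match is the same site, counted for both genes. All 250 searched bases lay in annotated exons for H2-D1, H2-Q4, Tap1, Tapbp, Psmb8 and Psmb9, and 154 did for H2-T23. These windows may therefore hold transcribed sequence.

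The stretches that hold both elements are shown for the 3 heavy chains and for B2m because these are the members that hold both. Capitals mark the NF-kB consensus and the interferon core, each is written on the strand of its gene, and in the heavy chains the NF-kB match reads as such on both strands, so overlapping matches form 1 block. For H2-K1 and B2m, 25 bases on either side are included. The H2-D1 and H2-Q4 stretches lie inside annotated exons, of H2-D1 itself and of the antisense gene Gm11131, and are limited to the elements and the bases between them.
H2-K1, chr17:34000405-34000483, minus strand: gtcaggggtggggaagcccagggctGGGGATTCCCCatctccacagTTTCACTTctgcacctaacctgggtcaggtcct
H2-D1, chr17:35262923-35262951, plus strand: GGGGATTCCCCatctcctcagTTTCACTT
H2-Q4, chr17:35379443-35379471, plus strand: GGGGATTTCCCatctccccagTTTCACTT
B2m, chr2:122147525-122147595, plus strand: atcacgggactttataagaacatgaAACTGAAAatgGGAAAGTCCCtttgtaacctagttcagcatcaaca

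Counted from 1 at the first capital of H2-K1, the 29 bases of H2-D1 differ from H2-K1 by A18T alone, and those of H2-Q4 differ by C8T and A18C. The block starts 111 bases before the RefSeq start in H2-K1, 171 in H2-D1 and 174 in H2-Q4. In B2m both elements match on the opposite strand, so the interferon core comes first as written on the strand of the gene. Read on the opposite strand, the NF-kB consensus comes first, as in the heavy chains.

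The libraries held between 15902013 and 21712033 counts on genes, of which mitochondrially encoded genes took 3.59% to 4.55%. Regional markers did not match all labels. Vehicle replicate 1, labelled cortex, carried olfactory bulb genes: the 8 listed markers summed to 1192 CPM (counts scaled to the TMM-normalized library size) there and to between 15.0 and 27.6 CPM in the other 7 libraries, and Omp, the olfactory marker protein, had 2040 counts against 3 to 8. Both libraries labelled amygdala carried striatal markers (7 genes, 1110 and 1229 CPM, against 120 to 198 CPM elsewhere). Choroid plexus markers (6 genes) summed to 1590 CPM in PTS + RS replicate 1, 1792 and 3731 CPM in the RS libraries and 1487 CPM in RGFP109 replicate 1, but to 44.8 CPM in PTS + RS replicate 2 and to 9.2 to 14.1 CPM in the other 3. For the members, values without the libraries concerned are given wherever that changes a call, a direction or a count.

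Levels of different genes were compared per length, as deposited FPKM. B2m was the most abundant member in every group, with 65.5 ± 6.68 FPKM (SD, n = 2) in the RS group and 238 ± 48.0 FPKM in the PTS + RS group. It was followed by H2-D1, H2-K1, Tapbp and H2-T23, in this order in all 4 groups. H2-D1 and H2-K1 overlapped in mean ± SD in the PTS + RS group (39.5 ± 8.51 and 30.5 ± 6.78 FPKM), yet within every library H2-D1 exceeded H2-K1, at 114% to 169% of it. H2-Q4, Tap2, Tap1 and Psmb8 lay between 0.792 and 3.50 FPKM in the group means, and their order changed between groups. Psmb9 was the lowest in each group, at 0.512 ± 0.166 FPKM in the RS group and 1.00 ± 0.263 FPKM in the PTS + RS group.

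The comparison of the PTS + RS group with the RS group asks what cortex infarction adds to restraint stress. B2m, H2-K1, H2-D1 and Tap1 were upregulated in the PTS + RS group, by between 2.50 and 3.64 times. These 4 of 10 members passed the test, which here means the quasi-likelihood test of edgeR with an adjusted p under 0.05, while 2.96% of the 17581 genes tested passed in that direction. The same 4 also had a log2 fold change of at least 1, as did 2.12% of genes. The other 6 had positive fold changes that missed the threshold, and in 9 of 10 both PTS + RS libraries lay above both RS libraries, which was true of 25.7% of all genes tested. The median log2 fold change of the 10 was 1.14, against -0.0015 for all genes.

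**Figure D1:**
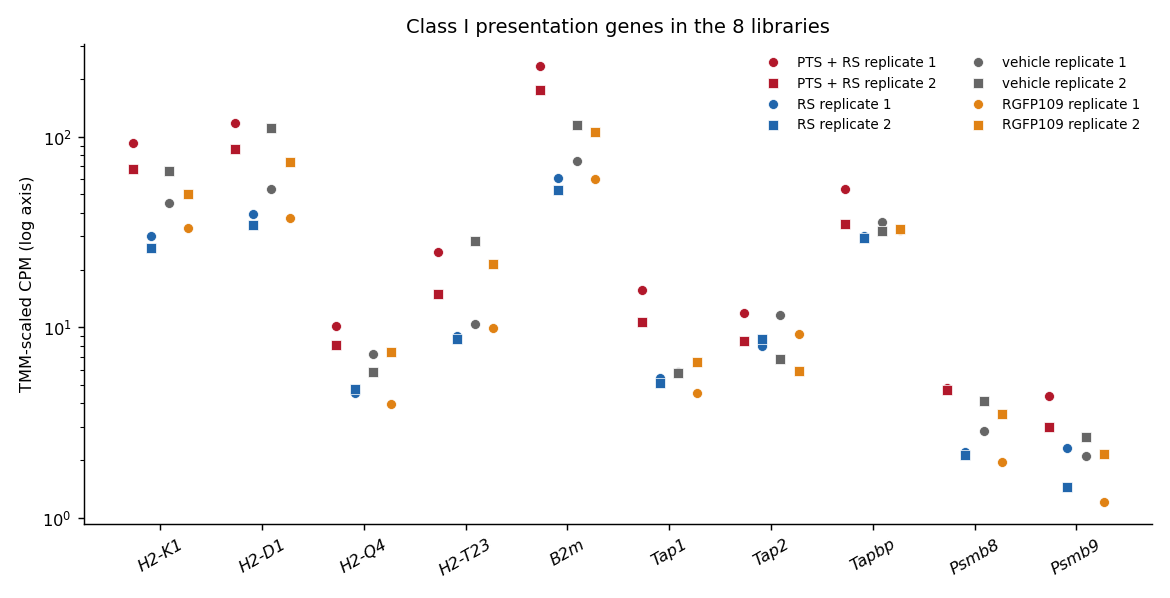
TMM-scaled CPM (log axis) of each member in each library, coloured by group, with circles for replicate 1 and squares for replicate 2. The PTS + RS libraries lie above the RS libraries for every member except Tap2, where RS replicate 2 (8.71 CPM) is above PTS + RS replicate 2 (8.50 CPM).

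Among the classical heavy chains, which present peptides to CD8 T cells, H2-K1 measured 92.9 and 67.4 CPM in the PTS + RS libraries and 30.1 and 25.9 CPM in the RS libraries. The groups did not overlap, and the lower PTS + RS library was above the higher RS library by more than the gap within either group. The log2 fold change was 1.51 (SE 0.164), with an adjusted p of 0.00417 by edgeR. H2-D1 measured 118 and 86.8 CPM against 39.3 and 34.4 CPM. Its log2 fold change was close to that of H2-K1, at 1.48 (SE 0.155; adjusted p = 0.00381 by edgeR), and the ratio of the FPKM of H2-D1 to that of H2-K1 was 129% and 130% in the PTS + RS libraries and 132% and 134% in the RS libraries.

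The 2 non-classical heavy chains had smaller counts. H2-T23 encodes Qa-1, which shows leader peptides of other class I molecules to the CD94/NKG2 receptors of natural killer cells, and it measured 24.7 and 15.0 CPM against 8.99 and 8.64 CPM. H2-Q4, a heavy chain of the Qa region, measured 10.2 and 8.08 CPM against 4.52 and 4.73 CPM. For both genes the groups were separate, but the PTS + RS libraries differed more between themselves than the RS libraries did. The log2 fold changes were 1.17 (SE 0.242) for H2-T23 and 0.98 (SE 0.205) for H2-Q4. Their adjusted p-values by edgeR were 0.0503 and 0.0517, just short of the threshold. DESeq2 put both below it, with adjusted p-values of 0.000715 and 0.0461.

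B2m, whose product is the light chain of all of these heavy chains, measured 236 and 176 CPM in the PTS + RS libraries and 60.7 and 52.4 CPM in the RS libraries. With a log2 fold change of 1.86 (SE 0.149; adjusted p = 0.00143 by edgeR) it had the greatest change of the 10. The summed FPKM of the 4 heavy chains was 34.3% and 33.1% of that of B2m in the PTS + RS libraries and 44.9% and 46.1% in the RS libraries. That ratio had separate values in the 2 groups but was not tested.

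The transporter subunits differed from each other. Tap1 measured 15.6 and 10.7 CPM against 5.41 and 5.11 CPM, a log2 fold change of 1.32 (SE 0.227; adjusted p = 0.0273 by edgeR). Tap2, with which Tap1 forms the TAP channel, measured 11.9 and 8.50 CPM against 8.0 and 8.71 CPM. The Tap2 groups overlapped, and its log2 fold change of 0.29 (SE 0.208) did not pass (adjusted p = 0.523 by edgeR). The FPKM of Tap1 was 90.7% and 86.6% of that of Tap2 in the PTS + RS libraries and 46.7% and 40.5% in the RS libraries; no test of this difference was run.

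Tapbp, which encodes tapasin, measured 52.9 and 34.9 CPM against 30.0 and 29.6 CPM. Most of its log2 fold change of 0.56 (SE 0.185; adjusted p = 0.178 by edgeR) lay in PTS + RS replicate 1: without that library it was 0.23, and without PTS + RS replicate 2 it was 0.82.

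The immunoproteasome subunits Psmb8 and Psmb9 rested on few reads, with 23 to 82 counts per library in this comparison. Psmb8, which replaces Psmb5, measured 4.79 and 4.67 CPM against 2.21 and 2.15 CPM. Its replicates were close together in both groups, and the log2 fold change of 1.12 (SE 0.245) had an adjusted p of 0.0604 by edgeR. Psmb9, which replaces Psmb6, measured 4.38 and 2.99 CPM against 2.32 and 1.45 CPM, a log2 fold change of 0.96 (SE 0.350; adjusted p = 0.217 by edgeR).

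**Figure D2:**
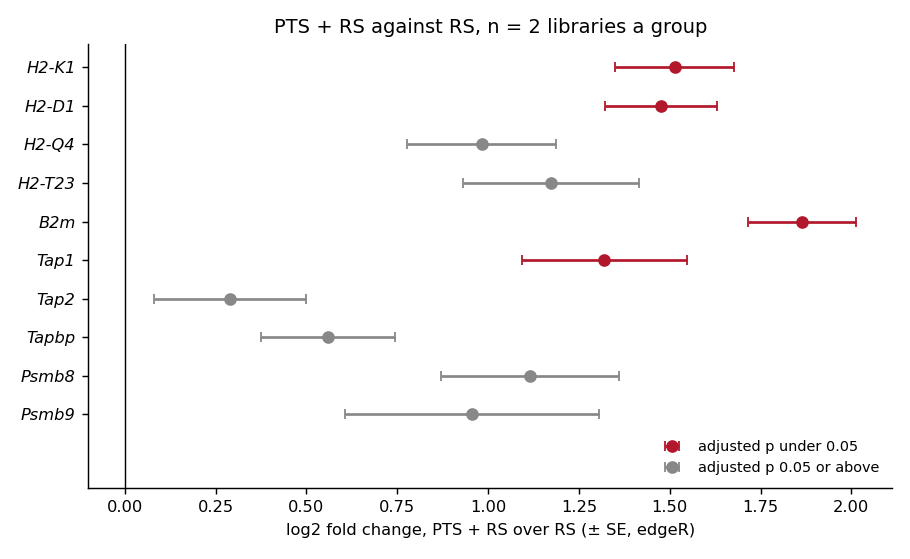
The log2 fold change of each member, PTS + RS over RS, with its standard error, for n = 2 libraries a group; red marks an adjusted p under 0.05 by edgeR. The values run from 0.29 for Tap2 to 1.86 for B2m, and 4 of 10 are red.

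The count of members that passed depended on the setting, and no fold change turned negative. It was 9 without a filter on low counts, where Tap2 alone did not pass and 3.72% of 30105 genes passed as higher. The log2 fold change of B2m was 1.86 with and without the filter, but its adjusted p by edgeR went from 0.00143 to 5.3e-76. The 9 is therefore not stronger evidence. Leaving out a library left 1 in its group, so the spread came from the other group alone. The RS pair differed less than the PTS + RS pair (4.95 against 15.1 chi-square units per gene). Higher counts without a PTS + RS library are thus not stronger evidence either. Leaving out PTS + RS replicate 1 gave 7, with H2-Q4, H2-T23 and Psmb8 added, as 5.58% of 18250 genes passed. Leaving out PTS + RS replicate 2, the library that nearly lacked choroid plexus markers, gave 8, with Tapbp added as well, as 7.69% of 18374 genes passed. B2m, H2-K1 and H2-D1 passed under all 9 alternatives, and Tap1 under 8; without RS replicate 2 its adjusted p was 0.0517 by edgeR.

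The catalytic subunits of the 2 kinds of proteasome were set against each other as ratios of FPKM. Psmb8 was 4.03% and 2.96% of Psmb5 in the PTS + RS libraries and 1.21% and 0.99% in the RS libraries. Psmb9 was 5.02% and 3.13% of Psmb6 in the PTS + RS libraries and 2.16% and 1.40% in the RS libraries. Both ratios were separate between the groups, by 3.16 and 2.28 times, and each had an exact two-sided permutation p of 0.3333, the smallest that 2 against 2 libraries can give. The third induced subunit, Psmb10, stood at 71.2% to 93.2% of Psmb7 in the PTS + RS libraries and 62.6% to 75.5% in the RS libraries, ranges that overlapped (exact permutation p = 0.667). None of these subunits passed singly: the log2 fold changes were -0.13 for Psmb10, -0.53 for Psmb5, -0.21 for Psmb6 and -0.37 for Psmb7, with adjusted p-values by edgeR of 0.736, 0.121, 0.29 and 0.0888. In all, 6 ratio comparisons were made.

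**Figure D3:**
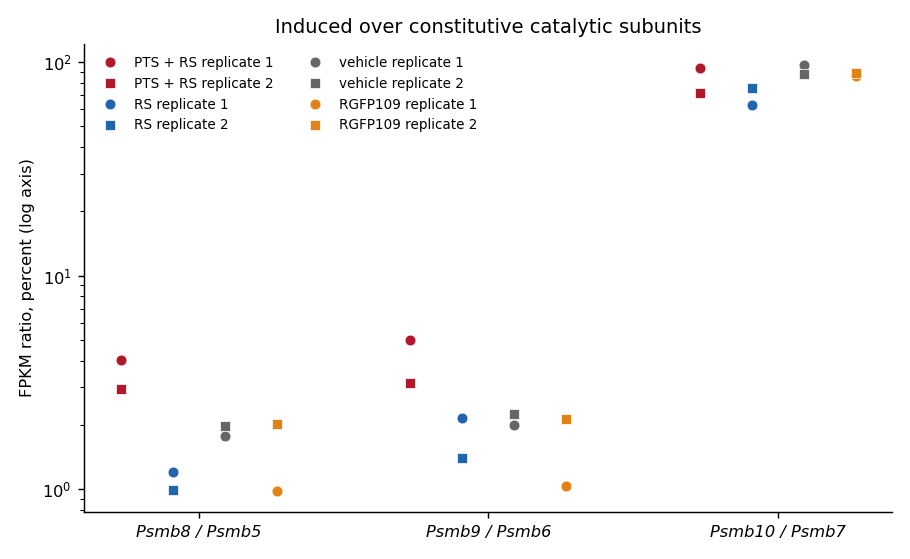
FPKM of an induced catalytic subunit as a percent of the constitutive subunit it replaces (log axis), per library; colours mark groups, circles replicate 1 and squares replicate 2. For Psmb8 over Psmb5 the PTS + RS libraries (4.03% and 2.96%) lie above all other libraries, which run from 0.98% to 2.02%, while Psmb10 over Psmb7 shows no separation.

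Other genes of the pathway were counted from fixed lists. Of 10 further genes of peptide loading and trimming, 1 rose in the PTS + RS group: Pdia3, the disulfide isomerase of the loading complex, with a log2 fold change of 0.39 (SE 0.0750; adjusted p = 0.0409 by edgeR), and the median of the list was 0.13. Pdia3 did not pass without RS replicate 1 or without RS replicate 2 (adjusted p = 0.313 and 0.499 by edgeR). Of 14 constitutive proteasome core subunits none passed in either direction (3 at an unadjusted p under 0.05; median -0.092), and of 4 genes of the immunoproteasome and its PA28 cap none passed (2 at an unadjusted p under 0.05; median 0.19), the change furthest from 0 being 0.57 for Psme2, a PA28 subunit. Of 21 other class I and class I like heavy chains 15 could be tested and none passed (4 at an unadjusted p under 0.05; median 0.48). H2-Q7, of the Qa-2 antigen, had the largest change among them, with 3.15 ± 1.66 CPM against 0.611 ± 0.150 CPM (adjusted p = 0.0561 by edgeR).

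Of 18 regulators of class I genes, 4 were upregulated and none fell (median 0.35). Nlrc5, the class I transactivator that acts on the promoters of heavy chain and B2m genes, rose from 1.32 ± 0.624 to 5.54 ± 1.49 CPM (log2 fold change 2.04, SE 0.382; adjusted p = 0.0375 by edgeR). Irf8, a transcription factor of the myeloid lineage, rose by 2.23 on the log2 scale, Ifngr1, the ligand-binding chain of the interferon gamma receptor, by 0.75, and Stat2, which carries type I interferon signals and was named here after its value was seen, by 0.57. Without RS replicate 1 or RS replicate 2, Ifngr1 (adjusted p = 0.154 and 0.136 by edgeR) and Stat2 (0.162 and 0.177) did not pass, and Nlrc5 missed the threshold without RS replicate 2 (0.069). When each library was left out, between 1 and 8 of the 18 regulators passed as higher. Irf1, a transcription factor induced by interferon gamma, did not pass (log2 fold change 0.15, SE 0.194; adjusted p = 0.749 by edgeR). Of 10 receptors for class I molecules and related inhibitory receptors, 7 were too low to be tested, and Lilrb4a, an inhibitory receptor of myeloid cells, was the 1 that passed, with 7.60 ± 2.12 against 0.319 ± 0.0947 CPM (adjusted p = 0.00171 by edgeR).

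In bulk tissue, more cells of a type and more RNA per cell cannot be told apart. Of the 14 microglial markers 14 passed as higher with stroke, and the median of their log2 fold changes was 2.29, beside 1.14 for the class I members. Their summed level was 1777 and 1527 CPM in the PTS + RS libraries and 385 and 346 CPM in the RS libraries, and none was at 0. The 8 endothelial markers had a median of 0.20 with none past the threshold (1 at an unadjusted p under 0.05), and summed to 311 and 276 CPM against 271 and 257 CPM. The 6 astrocyte markers had a median of 0.59, and 4 passed. Of 5 markers of border macrophages, which line the vessels and meninges of the brain, 4 could be tested and all 4 were positive (median 1.27). Ms4a7 was the 1 that passed (log2 fold change 3.89, SE 0.631; adjusted p = 0.0217 by edgeR), and the 5 summed to 23.8 and 11.01 CPM against 8.66 and 7.13 CPM, with none at 0. The 8 T cell markers summed to 2.5 and 1.7 CPM in the PTS + RS libraries and to 1.9 and 1.2 CPM in the RS libraries, with Cd8a at 6, 0, 0 and 0 counts. Of the 6 natural killer cell markers, Prf1 was at 0 in the 4 PTS + RS and RS libraries, where the sums ran from 0.110 to 0.467 CPM. The part of the microglial and border macrophage changes in the class I result was not tested.

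**Figure D4:**
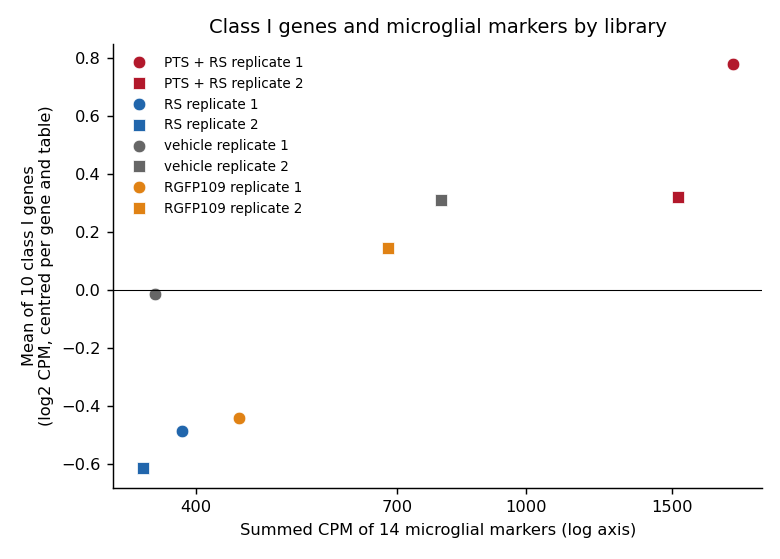
Mean of the 10 members in each library (log2 CPM, centred for each gene on its mean in the 4 libraries of its table) against the summed CPM of 14 microglial markers (log axis). Both PTS + RS libraries are above both RS libraries on both axes. In the other table the replicate 2 libraries are above the replicate 1 libraries on both axes, and vehicle replicate 1 (-0.013), with olfactory bulb genes, is above RGFP109 replicate 1 (-0.44) on the vertical axis but left of it on the horizontal.

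The comparison of RGFP109 with vehicle asks whether the inhibitor changes these genes in PTS + RS mice. B2m had 69.6 FPKM in RGFP109 replicate 1 and 85.7 FPKM in vehicle replicate 1, and 123 and 134 FPKM in the replicate 2 libraries. In the first table it had 272 and 204 FPKM with PTS + RS and 70.2 and 60.7 FPKM with RS. Microglial marker sums in the replicate 1 libraries (452 and 358 CPM) were also nearer to RS (385 and 346 CPM) than to PTS + RS (1777 and 1527 CPM). How much of the rise with stroke was present to be lowered was not tested. No member passed, and no gene of the 17565 tested did (0.0% of genes; 206 genes at an unadjusted p under 0.05, none of them a member). The fold changes of all 10 were below 0 on the log2 scale, from -0.05 for Tapbp to -0.56 for H2-D1, with a median of -0.29 against -0.016 for all genes, and every adjusted p was 1.00 by edgeR. In no member did both RGFP109 libraries lie below both vehicle libraries, while 13.8% of all genes did.

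The 2 libraries of each group differed widely. H2-D1 measured 37.4 and 73.3 CPM with RGFP109 and 53.1 and 111 CPM with vehicle, so that replicate 2 was the higher in both groups and the groups overlapped (log2 fold change -0.56, SE 0.483). H2-K1 measured 33.2 and 50.3 CPM with RGFP109 and 45.2 and 66.1 CPM with vehicle (-0.41, SE 0.304). B2m measured 59.9 and 105 CPM with RGFP109 and 74.6 and 116 CPM with vehicle (-0.20, SE 0.363). For these 3 genes each RGFP109 library was below the vehicle library of the same number.

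H2-T23 measured 9.96 and 21.6 CPM with RGFP109 and 10.5 and 28.3 CPM with vehicle. Tap2 measured 9.20 and 5.89 CPM with RGFP109 and 11.7 and 6.80 CPM with vehicle, and both its replicate 2 libraries were below both replicate 1 libraries. Psmb8 (1.97 and 3.51 against 2.84 and 4.08 CPM) and Psmb9 (1.21 and 2.15 against 2.10 and 2.66 CPM) had 19 to 75 counts per library. Within each replicate number all 4 of these genes had their lower value with RGFP109.

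The remaining 3 members went opposite ways in the 2 numbers. H2-Q4 measured 3.93 CPM with RGFP109 and 7.22 CPM with vehicle in replicate 1, and 7.38 and 5.82 CPM in replicate 2. Tap1 measured 4.50 against 5.86 CPM in replicate 1 and 6.59 against 5.76 CPM in replicate 2, and Tapbp 32.5 against 35.7 CPM and 32.7 against 31.9 CPM. Thus 7 of 10 members were lower with RGFP109 within both numbers, as were 25.4% of all genes, and the median log2 ratio was -0.41 in replicate 1, where all 10 were lower, and -0.21 in replicate 2. These ratios compare single libraries and carry no test.

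**Figure D5:**
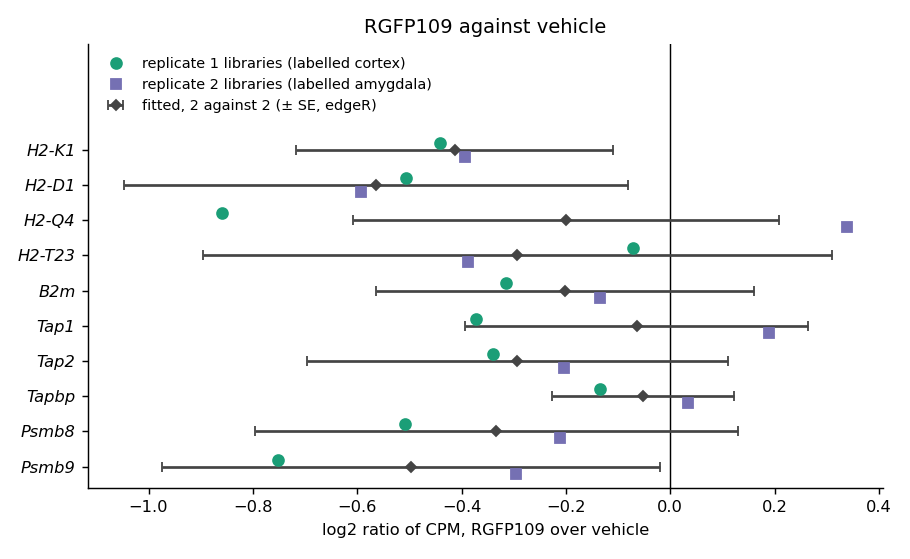
The log2 ratio of CPM, RGFP109 over vehicle, for each member: circles for the replicate 1 libraries (labelled cortex), squares for the replicate 2 libraries (labelled amygdala), and diamonds for the fit of 2 against 2 libraries with its standard error (edgeR). All circles lie left of 0, and the squares of H2-Q4, Tap1 and Tapbp lie right of it.

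The size of the median shift, and for most members the direction, rested on single libraries. Without vehicle replicate 1, which carried olfactory bulb genes, the median of the members was -0.53 and the fold changes of Tap2 (0.14) and Tapbp (0.024) turned positive. It was -0.73 without RGFP109 replicate 2, -0.014 without RGFP109 replicate 1 and -0.082 without vehicle replicate 2. In each case 0 members passed in edgeR, and the group left with 1 library was taken to vary like the other.

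Of the other lists, none had a gene that passed in this comparison. Nlrc5 (-0.30, SE 0.512) and Irf1 (0.24, SE 0.283) did not pass. The FPKM of Psmb8 was 0.98% and 2.02% of that of Psmb5 with RGFP109 and 1.76% and 1.98% with vehicle, and that of Psmb9 1.04% and 2.12% of Psmb6 with RGFP109 and 2.00% and 2.26% with vehicle. Both ratios overlapped between the groups (exact permutation p = 1.00 and 0.667), as did Psmb10 over Psmb7 (0.667). The microglial markers had a median log2 fold change of 0.047, and their sums were 452 and 683 CPM with RGFP109 and 358 and 791 CPM with vehicle. The border macrophage markers had a median of -0.45, and their sums were 15.9 and 25.2 CPM with RGFP109 and 15.8 and 36.7 CPM with vehicle.

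The labelled tissue was the other factor of these 4 libraries, and was tested with treatment as a covariate. The labels of the libraries compared are in doubt by the markers given above, so the values describe the replicate 2 libraries against the replicate 1 libraries. No member passed (5 at an unadjusted p under 0.05) and no gene of 17565 did (0.0% of genes; 1607 at an unadjusted p under 0.05, and by DESeq2 154 genes higher and 53 lower at an adjusted p under 0.05, none of them a member). In 6 of 10 members both amygdala-labelled libraries lay above both cortex-labelled ones, as in 21.6% of all genes: H2-K1, H2-D1, H2-T23, B2m, Psmb8 and Psmb9. The fold changes were 1.28 (SE 0.232) for H2-T23, 1.02 (SE 0.178) for H2-D1, 0.72 (SE 0.182) for B2m and 0.57 (SE 0.182) for H2-K1 on the log2 scale, with adjusted p-values of 0.372, 0.371, 0.439 and 0.49 by edgeR. Tap2 had the opposite sign (-0.71, SE 0.266; adjusted p = 0.541), and both its amygdala-labelled values were below both others.

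Leaving out a library here also left out the treatment term, since 3 libraries cannot carry it. Without vehicle replicate 1, 4 members passed as higher in the amygdala-labelled libraries: H2-D1 (1.31), H2-T23 (1.33), B2m (0.90) and H2-K1 (0.82 on the log2 scale), while 8.27% of 18613 genes passed as higher and 5.51% as lower. Without RGFP109 replicate 1 it was 3, namely H2-T23 (1.25), H2-D1 (0.79) and B2m (0.57), and Tap2 passed as lower (-0.88), while 15.1% of 18744 genes passed as higher and 13.6% as lower. With either replicate 2 library left out no member and no gene passed. H2-T23 was a larger fraction of H2-K1 in the amygdala-labelled libraries, at 38.8% and 38.6% of its FPKM against 27.1% and 20.9%, a difference that was not tested. The 14 microglial markers moved with the members here, with a median of 0.80 and 13 of 14 positive. So did the 5 border macrophage markers (median 1.21, 5 of 5 positive) and the 6 oligodendrocyte markers (median 0.51, 6 of 6 positive). Regional markers of striatum (median 3.24, 7 of 7 positive), cortex (0.84, 8 of 8) and amygdala (0.59, 7 of 7) had positive fold changes too. The cortex markers summed to 1919 and 1844 CPM in the amygdala-labelled libraries, against 1948 CPM in RGFP109 replicate 1 and 1214 CPM in vehicle replicate 1. The amygdala markers summed to 74.4 and 83.8 CPM, against 99.5 and 36.9 CPM. By their sums these 2 lists were higher only against vehicle replicate 1, which carried olfactory bulb genes. Medians were negative for olfactory bulb (-3.31), choroid plexus (-1.93), endothelial (-0.23) and astrocyte (-0.043) markers, and 0.11 for neurons. The part of any list in these values was not tested.

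Across the 8 libraries, the genes whose profile came nearest to the mean profile of the members were named by root mean square difference of log2 CPM, with values centred within each table, among 16937 genes. They were Tcirg1 (0.0899), a subunit of the vacuolar proton pump, Ctsl (0.106), the lysosomal protease cathepsin L, Glipr2 (0.109), Itgal (0.113), the alpha chain of the leukocyte integrin LFA-1, and Hexa (0.114), a lysosomal hexosaminidase. The median over all genes was 0.505. Among the members, Psmb8 (0.131) and Tap1 (0.133) were nearest to their own mean and Tap2 (0.508) furthest from it, at about the value of the median gene. The choice used the PTS + RS and RS libraries, so fold changes near those of the members followed from it and are no separate result. All 5 of the nearest genes had log2 fold changes between 1.06 and 1.26 in the PTS + RS group against the RS group. Of these, 4 passed, Itgal being the exception (adjusted p = 0.217 by edgeR), while 2.96% of all genes tested passed as higher.

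Some counts may mix neighbouring genes. Of the 120-base stretches in annotated transcripts of H2-D1, 2.82% also occur in transcripts of other genes, and the shares were 1.52% for H2-T23, 0.231% for H2-Q4, 0.194% for H2-K1 and 0.0% for the other 6. B2m lies within Patl2 on the opposite strand, H2-T23 overlaps the antisense gene A930015D03Rik over 3083 bases, and Tapbp shares 3421 bases with Zbtb22 on the same strand. On the opposite strand Tap2 overlaps Gm15821 over 3148 bases and Gm20496 over 1923 bases. Psmb8 overlaps Gm20496 over 2139 bases, Tapbp overlaps Gm19412 over 1011 bases and H2-Q4 overlaps Gm11131 over 676 bases, also on the opposite strand. The strand setting of the counting was not given in the sources used here, so reads from such partners may not have been told apart.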

How the data were processed

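RNA was extracted from brain tissue with Trizol and sequenced as paired ends. Per the paper's methods and the submitters' processing notes, the authors aligned reads to GRCm38 with STAR 2.4.0 and counted them per gene with HTSeq 0.6.1. The deposited counts are raw read counts per gene, and the deposited FPKM divide them by gene length and library depth. The kit is named differently in the labels and the methods. The authors' columns of fold changes, p-values and group means were not used, nor were 8 further columns of per-library values.

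Groups were taken from the sample labels. The 28229 genes of the RGFP109 table were matched to the first table by position, with the same name in all 28229. Counts were normalized by TMM, filtered with filterByExpr and compared with edgeR 4.0.16 in R 4.3.3 (quasi-likelihood test, 2 against 2 libraries, Benjamini-Hochberg adjustment over 17581 or 17565 genes), with a threshold of 0.05 and, where stated, a log2 fold change of at least 1. The 2 tables were normalized separately, so CPM levels are compared within each. Library pairs of a group differed by 4.95 to 83.8 chi-square units per gene, above sampling noise. Log2 ratios of single libraries used a prior count of 2. The fits were tested on simulated data.

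Alternatives were DESeq2 1.42.0, its size factors, limma-voom (limma 3.58.1), no filter, leaving out each library, and the replicate number as a block. Members, lists and markers were chosen with earlier results of these data known. All members are named; from the 6 other lists, the 3 passed genes with the largest change or, where none passed, the 1 with the largest change, and always Psmb5, Psmb6, Psmb7, Psmb10, Nlrc5 and Irf1; 1 further gene of that rule is not reported here. Figures were drawn with matplotlib 3.10.9.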

Additional observations from a re-analysis of the deposited data

Results flagged for a closer look

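In 3 members the log2 ratio of RGFP109 to vehicle had opposite signs in the 2 replicate numbers, which are also the 2 labelled tissues. The ratio in replicate 1 minus that in replicate 2 was -1.20 for H2-Q4, -0.56 for Tap1 and -0.17 for Tapbp. No member passed in this comparison. Olfactory bulb markers summed to 1192 CPM in vehicle replicate 1 and 20.3 CPM in RGFP109 replicate 1, so the replicate 1 ratio may not compare like tissue. Each number holds 1 library of each group, so the difference was not tested.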

How the results depend on the processing

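Each group has 2 libraries, and Psmb8 and Psmb9 had 19 to 82 counts per library, which limits their precision. For PTS + RS against RS, the number of members that passed was 4, and 9 without a filter on low counts; leaving out each library gave 3 to 8, while between 339 and 1413 of all genes passed as higher (1119 without the filter). The replicate block gave 6, with H2-Q4 and H2-T23 added (adjusted p = 0.04 and 0.0154 by edgeR), and raised the calls over all genes from 521 higher and 103 lower to 687 and 228. The labels tie these numbers to no shared litter or day, while for RGFP109 and vehicle they coincide with the labelled tissue (correlation of deviations 0.035 and 0.30). DESeq2 also gave 6, with 601 of all genes passed as higher, and limma-voom 4, with 439. Over all 10 members and 9 alternatives, 73 of the values kept their direction and side of the threshold, 16 newly passed and 1 no longer did, and none changed sign. The same alternatives, applied to the other lists after seeing the data, left Irf8 and Lilrb4a passed under all 9. Nlrc5, Ifngr1 and Stat2 missed the threshold with limma-voom (adjusted p = 0.0522, 0.0513 and 0.0567), as did the border macrophage marker Ms4a7 (0.0598). The microglial markers passed 14 of 14 in each. H2-Q7 and, as lower, Psmb5 passed with DESeq2 (adjusted p = 0.0113 and 0.0405) and with the replicate block (0.0152 and 0.0136 by edgeR). Both also passed without a filter on low counts, as did Psmb7 as lower (adjusted p = 0.018 by edgeR). When each library was left out, Irf1 reached -0.033 without RS replicate 1 and 0.34 without RS replicate 2, and Psmb10 ran from -0.28 to 0.026, the latter without RS replicate 2.

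For RGFP109 against vehicle 0 members passed under every alternative run, the block included, and 80 of 90 fold changes kept their sign. The median (-0.29) ran from -0.73 to -0.014 when each library was left out. The lowest values in these fits were -1.13 for H2-D1, -0.96 for H2-T23, -0.67 for B2m, -0.73 for H2-Q4, -0.37 for Tap1, -0.81 for Psmb8, -0.64 for Tap2 and -0.12 for Tapbp. The log2 fold change turned positive without RGFP109 replicate 1 for H2-Q4 (0.18), H2-T23 (0.16), B2m (0.15), Tap1 (0.18) and Psmb8 (0.020), without vehicle replicate 1 for Tap2 (0.14) and Tapbp (0.024), and without vehicle replicate 2 for H2-D1 (0.073), H2-T23 (0.61) and B2m (0.16). That of Nlrc5 ran from -0.94 to 0.13, the latter without RGFP109 replicate 1.

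For amygdala- against cortex-labelled libraries 0 to 4 members passed when each library was left out, with medians from 0.28 to 0.86, and H2-Q4 (-0.12, without RGFP109 replicate 1) and Tapbp (0.0022, without vehicle replicate 1) changed sign, with 0.76 and -0.14 at the other end of their ranges. Other alternatives passed 0. In these fits, which have 1 library in a group and no treatment term, 0 to 2831 of all genes passed as higher and 0 to 2552 as lower, and the cause of each change was not tested. Ratios of proteasome subunits from CPM per kilobase equalled those from FPKM, as they must, since both divide the same counts by the same gene length. This alternative was therefore no check.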
